A study of Mus musculus with 16 samples.

Results

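The antigen receptor genes of T and B lymphocytes were examined in RNA sequencing of sorted mouse hepatic stellate cells (HSCs), the retinoid-storing perivascular cells of the liver. A row of a deposited expression table was taken as a member if any gene in it carried the symbol of a T cell receptor or immunoglobulin variable (V), diversity (D), joining (J) or constant region. The rule used symbols and no measured values, but it was chosen with earlier results of these data known. Of the 6258 rows with a gene name in the 3 tables, 304 were members. The table of quiescent HSCs (qHSCs) held 285 of 5716 rows, the table of GFP-high activated HSCs (aHSCs) 7 of 123, and the table of GFP-intermediate aHSCs 12 of 419.

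The study used 16 samples of C57/Bl6 animals, enriched for HSCs by density centrifugation and then sorted by flow cytometry. The 3 lineage label-negative and 3 lineage label-positive qHSC samples came from the same 3 uninjured WT1CreERT2;Ai14 animals, in which tamoxifen at E10.5 activated a red fluorescent label in WT1-expressing cells, so that the mesothelium of the embryonic liver and its progeny were marked. Their livers were taken after weaning, and the animals were male by the sample labels and female by the methods of the study. The aHSC samples came from 6 adult male animals that had received carbon tetrachloride, a hepatotoxin, for 8 weeks. All of these carried PDGFRbCre, the Ai14 reporter and 1 GFP knock-in WT1 allele. The other WT1 allele was wild type in control animals (WT1_+_GFP) and floxed in WT1-deleted animals (WT1_fl_GFP), and all aHSCs were sorted as positive for the red label. PDGFRbCre is constitutive, so deletion was not limited to adult HSCs. The GFP-high groups had 3 samples each and the GFP-intermediate groups, which the sample labels call GFP low, had 2 each, of which 1 control sample was pooled from 2 animals.

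T and B lymphocytes build their receptors by joining one V, in some chains one D, and one J segment, after which the joined exon is spliced to a constant region. Mature T cells express an alpha and a beta chain, or a gamma and a delta chain, together with the CD3 signalling chains. B cells carry a heavy and a light chain (kappa or lambda) with CD79A and CD79B, begin with the mu and delta heavy chain constant regions, and may switch to the gamma, alpha or epsilon constant regions. Plasma cells secrete the same molecules in large amounts and lose much of the B cell surface machinery. The liver holds resident and circulating cells of all these types.

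Each value below is the authors' FPKM for a whole group (mapped fragments divided by transcript length and by library total), with 1 value per group and row. Neither depth nor the spread between animals is known for these values, and no test was run. The qHSC rows are only those that the authors had called different between the groups, so every row there had to differ. The WT1 deletion comparisons list more named rows than the paper reports as changed genes, and which of these rows were called was not checked. A segment without a row has an unknown level, not a level of 0. Folds are given only where both groups lie above 0. Positions are those of GENCODE vM21 on GRCm38, matched by symbol; all 285 quiescent member symbols and Ensembl identifiers were found there under the same symbol.

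The segments with the highest listed values were joining segments, which are very short. A few are shown here because 8 of the 10 highest listed FPKM values in label-negative qHSCs belonged to receptor genes, 7 of them joining segments. The sequences are GENCODE vM21 transcripts read 5′ to 3′, and capitals mark the codons of the phenylalanine or tryptophan, glycine, any residue, glycine motif that closes the receptor's most variable loop. These letters were searched in all reading frames of the coding strand and were found in 72.5% of the 80 annotated T cell receptor joining segments and in all 4 heavy chain joining segments.
Trbj1-3 (chr6:41534323-41534372, plus strand): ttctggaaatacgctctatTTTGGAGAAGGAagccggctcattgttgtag
Trbj1-4 (chr6:41534811-41534861, plus strand): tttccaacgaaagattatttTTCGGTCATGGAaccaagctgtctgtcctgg
Traj12 (chr14:54206553-54206610, plus strand): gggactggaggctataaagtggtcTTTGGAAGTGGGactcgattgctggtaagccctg
Traj11 (chr14:54207139-54207197, plus strand): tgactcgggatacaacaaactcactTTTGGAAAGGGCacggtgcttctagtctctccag
Traj33 (chr14:54185358-54185414, plus strand): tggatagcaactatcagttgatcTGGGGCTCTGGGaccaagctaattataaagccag
Trgj1 (chr13:19210343-19210402, plus strand): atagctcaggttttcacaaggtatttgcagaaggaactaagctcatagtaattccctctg
Ighj1 (chr12:113429781-113429833, minus strand): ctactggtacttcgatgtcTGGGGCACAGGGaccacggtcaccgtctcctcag
Ighj4 (chr12:113428514-113428567, minus strand): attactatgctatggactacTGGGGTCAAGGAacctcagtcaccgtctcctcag
Trgj1 has no match to the motif and is printed without capitals. These 8 segments are 50 to 60 bases long, and FPKM divides by length, so their values are not on the same footing as those of whole genes.

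All 285 receptor segment rows in qHSCs were higher in lineage label-negative than in lineage label-positive cells, beside 49.6% of all 5716 rows. The difference was at least 1 on the log2(FPKM + 1) scale in 252 of the 285, beside 30.2% of all rows. The median difference, label-positive minus label-negative, was -2.59 over the members and 0.27 over all rows on that scale. In the label-positive fraction 90 member rows were listed at 0, which is 73.8% of the 122 rows of the whole table at 0 there and 31.6% of the members, beside 2.13% of all rows. No member row could be listed at 0 in the label-negative fraction, since all 285 were higher there. In these bulk samples, fewer cells that express a segment and less of its RNA per cell cannot be told apart, and which cells of the sorted fractions gave the reads was not tested.

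**Figure D1:**
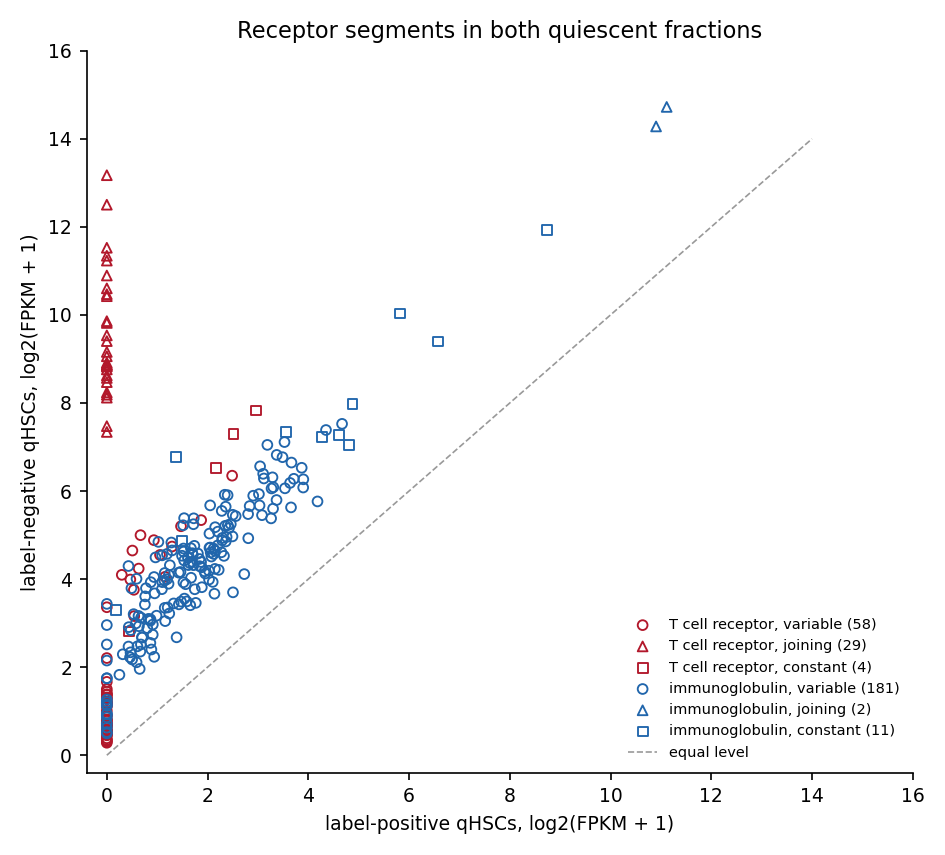
Each point is 1 of the 285 receptor segment rows in qHSCs, with the authors' group value in label-positive cells on the horizontal axis and in label-negative cells on the vertical axis, both as log2(FPKM + 1). All points lie above the dashed line of equal level, and the red T cell receptor points at the left edge are the 73 listed at 0 in label-positive cells.

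The 2 receptor types differed in how far the label-positive values fell short. Of 91 T cell receptor rows, 73 were listed at 0 in label-positive cells and the other 18 had a median fold, label-negative over label-positive, of 27.0 (range 12.7 to 70.5). Of 194 immunoglobulin rows, 17 were listed at 0 and the other 177 had a median fold of 8.60 (range 2.56 to 68.1). The 2516 other rows that were higher in label-negative qHSCs and above 0 in both fractions had a median fold of 3.78. The counts at 0 also differed by segment class. Of the T cell receptor rows at 0, 41 were alpha V rows, of which 25 were below 1 FPKM in label-negative cells. Another 26 were alpha joining segments of 57 to 66 bases. Among other V rows, 3 of 15 beta, 11 of 89 heavy and 6 of 89 kappa were listed at 0.

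The constant regions give the level of each chain with the least dependence on which segments were joined. Trac, the alpha chain constant region at chr14:54220521-54224206, was at 227 FPKM in the label-negative fraction and 6.79 in the label-positive fraction, a fold of 33.4. The beta chain has 2 constant regions, and Trbc1 (chr6:41538218-41539881) was at 91.1 and 3.48 FPKM while Trbc2 (chr6:41546730-41548352) was at 155 and 4.72, folds of 26.2 and 32.9. Trdc, the delta chain constant region, was far lower in both fractions, at 6.01 and 0.361 FPKM, a fold of 16.7. Trac therefore stood 37.7-fold above Trdc in the label-negative and 18.8-fold above it in the label-positive fraction, both per length.

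The CD3 chains, which carry the signal of every T cell receptor, were listed with folds of the same order. All 4 had a row and all 4 were higher in label-negative cells. Cd3e was at 101 FPKM in the label-negative fraction and 3.68 in the label-positive fraction, and Cd3g at 147 and 5.98. Cd3d was at 56.4 and 1.98 FPKM, and Cd247, the zeta chain, at 34.4 and 0.984. The 4 folds ran from 24.6 to 34.9, a range that holds those of Trac, Trbc1 and Trbc2 but not that of Trdc.

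All 7 genes of the list of T cell coreceptors and costimulators also had rows and were higher in label-negative cells, with a median fold of 37.2. Cd8a and Cd8b1, the coreceptor chains for MHC class I, were at 51.6 and 64.03 FPKM in label-negative qHSCs and at 1.24 and 1.25 in label-positive cells. Cd4, the coreceptor for MHC class II, was at 31.8 and 2.08 FPKM, and its fold of 15.3 was the smallest of the 7. Ptcra, the chain that stands in for alpha in developing thymocytes, had no row.

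The heavy chain constant regions lie side by side on chromosome 12, and all 8 annotated there had a row. Igha (chr12:113254830-113260236), the constant region of the mucosal class IgA, was the highest at 1045 FPKM in label-negative qHSCs and 55.5 in label-positive cells, a fold of 18.8. Ighm (chr12:113418558-113422730), the first class made by a B cell, was at 672 and 94.2 FPKM, a fold of 7.14. Ighd (chr12:113406604-113416324), which mature resting B cells make from the same primary transcript as Ighm, was at 108 and 1.59 FPKM, a fold of 68.1. Ighm therefore stood 6.23-fold above Ighd per length in label-negative qHSCs and 59.4-fold above it in label-positive cells.

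The gamma constant regions, which B cells reach by class switching, were all lower than Ighm in both fractions. Ighg1 was at 250 FPKM in the label-negative fraction and 28.4 in the label-positive fraction, a fold of 8.81. Ighg2b was at 153 and 23.3 FPKM, and Ighg2c at 131 and 27.0, a fold of 4.86 that was the smallest among the heavy constant regions. Ighg3 was at 28.0 and 1.81 FPKM. Ighe, of the class that arms mast cells, was the lowest at 8.85 and 0.136 FPKM.

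Of the summed FPKM of the 8 heavy constant regions, Igha made up 43.6% in the label-negative and 23.9% in the label-positive fraction. The share of Ighm was 28.1% and 40.6%, that of the 4 gamma genes together was 23.5% and 34.7%, and that of Ighd was 4.50% and 0.683%. These shares carry no error, since each fraction has 1 value per gene.

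The light chain constant regions were dominated by kappa in both fractions. Igkc (chr6:70726435-70726966) was at 3877 FPKM in the label-negative fraction and 424 in the label-positive fraction, a fold of 9.14. It was the only constant region among the 10 highest listed rows of the label-negative fraction. Iglc1 was at 149 and 18.3 FPKM and Iglc2 at 161 and 10.8. Igkc made up 92.6% of the summed light constant FPKM in the label-negative and 93.6% in the label-positive fraction. Of the 4 annotated lambda constant regions, 2 had no row.

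Of the 6 signal chains and coreceptors of the B cell receptor, 5 had larger folds than all its constant regions but Ighd and Ighe. Cd79a and Cd79b, the signal chains of the receptor, were at 184 and 87.9 FPKM in the label-negative fraction and 3.51 and 2.26 in the label-positive fraction, folds of 52.5 and 38.9. Of the 6 genes in this list 5 were higher in label-negative cells; Cd81, which many liver cells express, was at 406 FPKM in the label-negative fraction and 909 in the label-positive fraction. The 6 other B cell genes all had rows and were higher in label-negative cells, with folds of 8.06 to 72.4 and a median of 13.7 over their 7 rows. Pax5, the B lineage transcription factor, was at 65.3 and 0.903 FPKM and Ms4a1 at 67.5 and 1.66, whereas Blk was at 20.6 and 1.61 and Cd37 at 186 and 23.0 in the higher of its 2 rows.

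Of the 9 genes of plasma cells and antibody secretion, 5 were higher in label-negative cells. Jchain, which links IgA and IgM units, was at 295 FPKM in the label-negative fraction and 38.9 in the label-positive fraction, a fold of 7.58, beside 7.14 for Ighm, 18.8 for Igha and 9.14 for Igkc. Mzb1, an antibody-folding partner, was at 50.4 and 2.50 FPKM, and Irf4, a transcription factor of activated B cells and plasma cells, at 38.5 and 1.49. Prdm1, the plasma cell regulator, was at 6.62 and 3.32 FPKM. Pigr, the epithelial transporter of polymeric antibody, went the other way at 3.83 and 7.12 FPKM. The other 3 had no row, Sdc1 and Xbp1 among them.

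**Figure D2:**
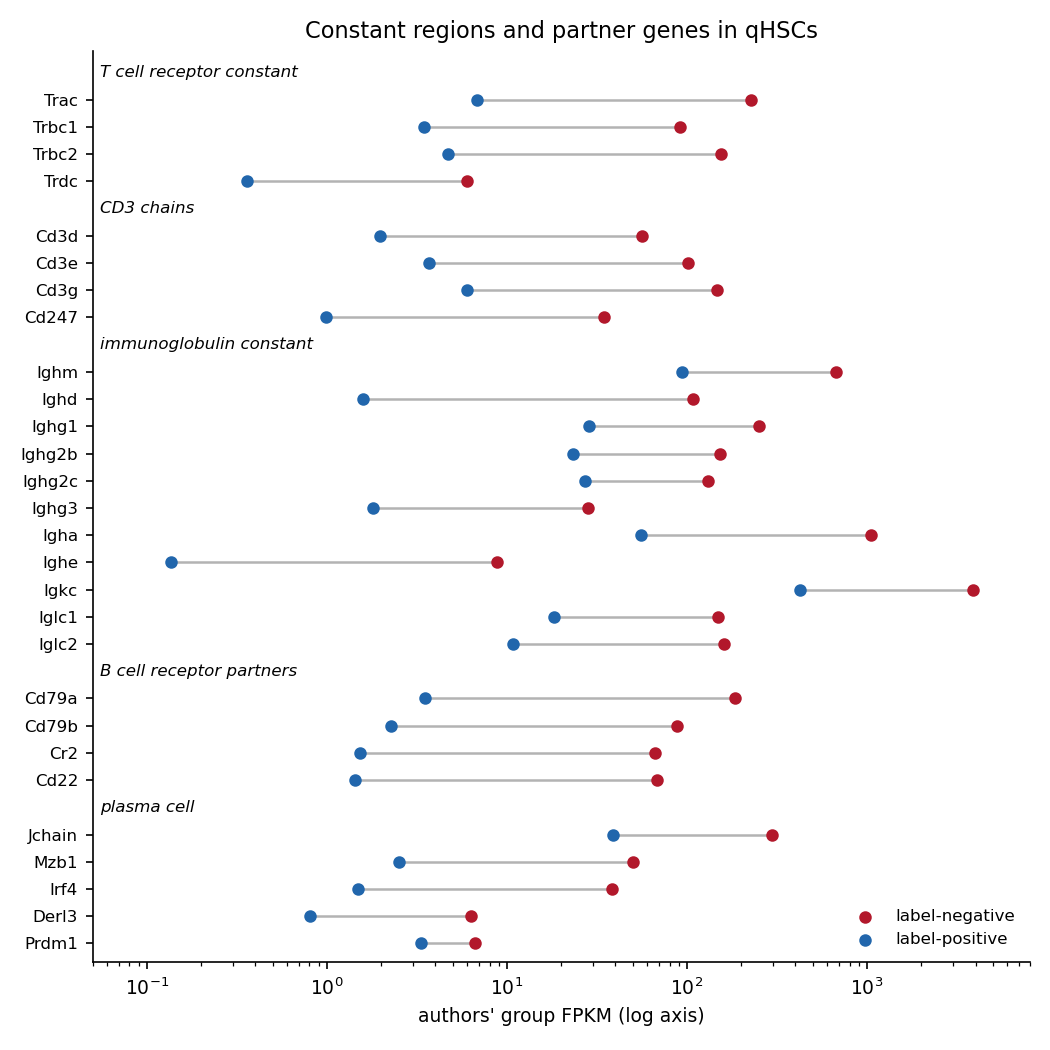
Authors' group FPKM on a log axis for the constant regions and for genes that act beside them, with label-negative qHSCs in red and label-positive qHSCs in blue, joined by a line for each gene. Every gene shown lies lower in label-positive cells. Ighm, Igkc and Jchain lie at 94.2, 424 and 38.9 there, and Ighd and Cd79a at 1.59 and 3.51. Mzb1 and Irf4, in the same block as Jchain, lie at 2.50 and 1.49 there.

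Rag1 and Rag2, the subunits of the recombinase, had no row. Dntt, which adds bases at junctions, was at 1.96 FPKM in the label-negative fraction and 0.553 in the label-positive fraction. Of 4 surrogate light chain genes, which belong to B cell precursors, Vpreb3 alone had a row, at 12.7 and 0.367 FPKM.

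The heavy chain V segments lie on chromosome 12, and 89 of 183 annotated had a row in qHSCs. Their median FPKM was 15.0 in label-negative cells (range 0.410 to 76.0) and 1.34 in label-positive cells (range 0 to 13.9). The 3 highest were Ighv3-6 at 76.0 and 13.9 FPKM, Ighv1-81 at 67.0 and 8.88, and Ighv2-9 at 60.0 and 7.11. In label-positive cells 11 of the 89 were listed at 0, and these were among the lower ones in label-negative cells (0.410 to 9.83 FPKM). The other 78 had a median fold of 8.52 (range 2.90 to 53.7).

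The kappa V segments on chromosome 6 gave a similar picture, with 89 of 160 annotated having a row. Their median FPKM was 22.5 in label-negative cells (range 0.544 to 166) and 2.59 in label-positive cells. Igkv10-96 was the highest at 166 and 19.4 FPKM, followed by Igkv19-93 at 137 and 10.53 and Igkv6-13 at 131 and 8.11. Only 6 were listed at 0 in label-positive cells, and the other 83 had a median fold of 8.57 (range 2.56 to 22.6). The smallest and largest folds of these V segments, named after their values were seen, were those of Igkv12-89 at 12.0 and 4.68 FPKM and Ighv1-15 at 18.7 and 0.348. Ighv1-15 is 98.0% identical to Ighv1-23, so its value may hold reads of that segment.

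The 3 lambda V segments, all those annotated, each had a row. Iglv1, the V segment most used by mouse lambda chains, was at 183 FPKM in the label-negative fraction and 24.5 in the label-positive fraction. Iglv3 was at 59.4 and 4.07, and Iglv2 at 48.5 and 11.6. The folds of 7.50, 14.6 and 4.17 lay within the range of the heavy and kappa V segments.

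The heavy and kappa V rows were spread over many families. Of the heavy chain rows, 41 belonged to Ighv1, the largest family, with a median of 14.9 FPKM in label-negative qHSCs and 1.03 in label-positive cells. Ighv2 and Ighv5 had 9 rows each, with medians of 12.7 and 17.8 FPKM in label-negative cells. Of the kappa rows, 20 belonged to Igkv4 (median 10.6 FPKM) and 10 to Igkv3 (15.7 FPKM). Igkv6, with 9 rows, had a higher median of 45.8 FPKM, and Igkv10, with 2 rows, of 101 FPKM. Each heavy and kappa V family with a row had at least 1 row above 0 in both fractions.

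The segments kept much of their order between the fractions. Over the 83 kappa V segments above 0 in both, log2 FPKM in the 2 fractions correlated with r = 0.89, and over 78 heavy V segments with r = 0.84. These are descriptions across segments that share gene models, mappability and the same 3 animals, and they carry no p-value. Near-identical copies limit single values, since 10 of the 89 heavy and 17 of the 89 kappa V segments are at least 97% identical over at least 90% of their length to another annotated segment. Of the 285 rows, 24 are annotated as pseudogenes.

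Because every receptor message carries 1 V and 1 constant region, their levels per length can be set side by side. The 89 kappa V rows summed to 3030 FPKM in label-negative cells (mean 34.0), which was 78.1% of Igkc, and to 359 in label-positive cells (mean 4.03), which was 84.6%. The 89 heavy V rows summed to 1589 FPKM (mean 17.9) and to 193 (mean 2.17), which was 66.3% and 83.2% of the 8 heavy constant regions. The sums cover only the segments with a row. The 3 lambda V rows summed to 93.9% of the listed lambda constant regions in label-negative cells and to 138% in label-positive cells. Beta V rows also summed to more than their constant regions, so these shares do not count messages. The fold of the summed kappa V rows was 8.44, beside 9.14 for Igkc, and that of the summed heavy V rows was 8.23, beside 10.3 for the summed heavy constant regions.

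The 2 heavy chain joining segments with a row were the highest listed values of the label-negative fraction. Ighj4 was at 27064 FPKM in the label-negative fraction and 2217 in the label-positive fraction, a fold of 12.2. Ighj1 was at 19905 and 1915 FPKM, a fold of 10.4. The other 2 heavy joining segments, all 20 heavy D segments, all 5 kappa and all 5 lambda joining segments had no row.

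The T cell receptor beta V segments lie on chromosome 6, and 15 of 35 annotated had a row, none with a near-identical copy. Trbv13-2 was the highest at 80.5 FPKM in the label-negative fraction and 4.61 in the label-positive fraction, followed by Trbv29 at 39.5 and 2.66 and Trbv13-1 at 35.8 and 1.78. The median was 22.4 FPKM in the label-negative fraction and 0.551 in the label-positive fraction. Trbv20, Trbv21 and Trbv30 were listed at 0 in label-positive cells and at 9.27, 0.468 and 1.59 FPKM in label-negative cells. The other 12 had folds of 14.8 to 70.5, with a median of 29.5, close to the 26.2 and 32.9 of Trbc1 and Trbc2. The largest fold was that of Trbv3, at 16.1 and 0.229 FPKM. The 15 rows summed to 360 FPKM in label-negative cells (mean 24.0), 146% of both beta constant regions together. In label-positive cells they summed to 15.1 FPKM (mean 1.01), 184% of those regions.

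**Figure D3:**
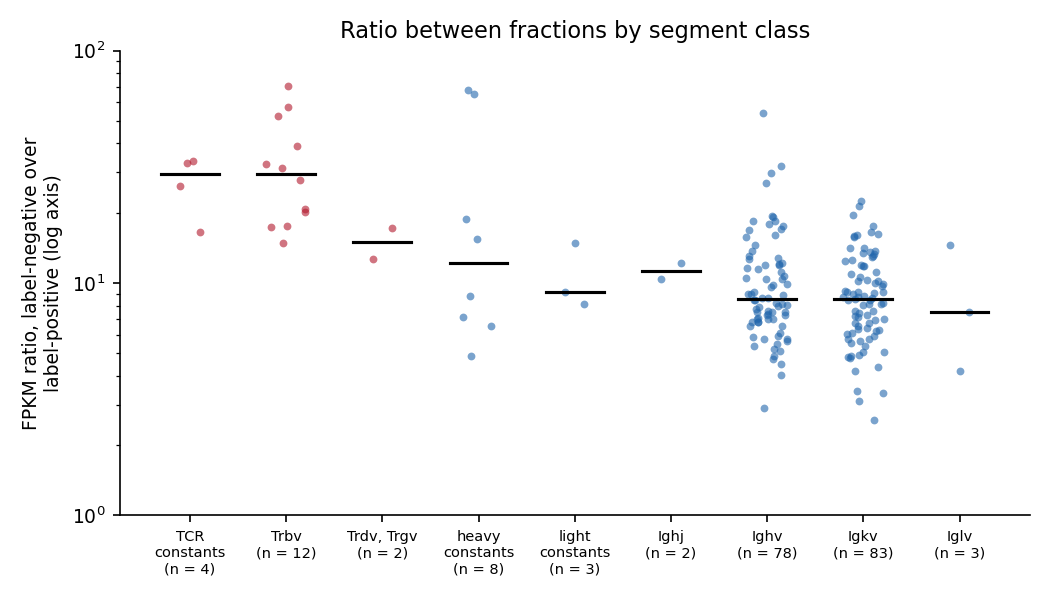
FPKM ratio of label-negative over label-positive qHSCs on a log axis for the 195 receptor rows above 0 in both fractions, 1 point per row, with a bar at the median of each class and the number of rows below it. T cell receptor classes are red and immunoglobulin classes blue; the Trbv median is 29.5 and the Ighv and Igkv medians are 8.52 and 8.57.

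The alpha chain V segments stood apart from the beta chain by their low values. Of 128 annotated on chromosome 14, 41 had a row, with a median of 0.724 FPKM in label-negative cells (range 0.217 to 3.62), and all 41 were listed at 0 in label-positive cells. Of the 41, 25 were below 1 FPKM. The highest were Trav6-1 at 3.62, Trav6d-4 at 2.17 and Trav9d-1 at 1.83 FPKM. They summed to 38.1 FPKM (mean 0.929), 16.8% of Trac in label-negative cells. The alpha V region is partly duplicated in this genome, and 24 of the 41 have a copy at least 97% identical; how reads were shared among such copies was not tested.

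The alpha chain joining segments had far higher listed values. Of 60 annotated, 26 had a row, all listed at 0 in label-positive cells, with a median of 475 FPKM in label-negative cells (range 161 to 2947). Traj12 was the highest at 2947 FPKM, followed by Traj11 at 2408 and Traj31 at 1903. These segments are 57 to 66 bases long, and their values were lower in the longer ones. The median was 1661 FPKM over the 4 of 57 to 58 bases (459 to 2947), 552 over the 16 of 59 to 63 bases (277 to 2408) and 296 over the 6 of 64 to 66 bases (161 to 394), by bands chosen after the values were seen; how far length or distance sets the values was not tested. The rows were spread over most of the joining cluster, from Traj2, which ends 2.62 kb before the start of Trac, to Traj52 at 55.1 kb. Traj12 and Traj11 neighbour each other, 13.9 and 13.3 kb from Trac, and Traj31 lies at 32.6 kb, whereas Traj52, the farthest with a row and 66 bases long, had the lowest value of 161 FPKM. Traj2 and Traj3, the nearest with a row and also 66 bases long, were at 379 and 394 FPKM.

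**Figure D4:**
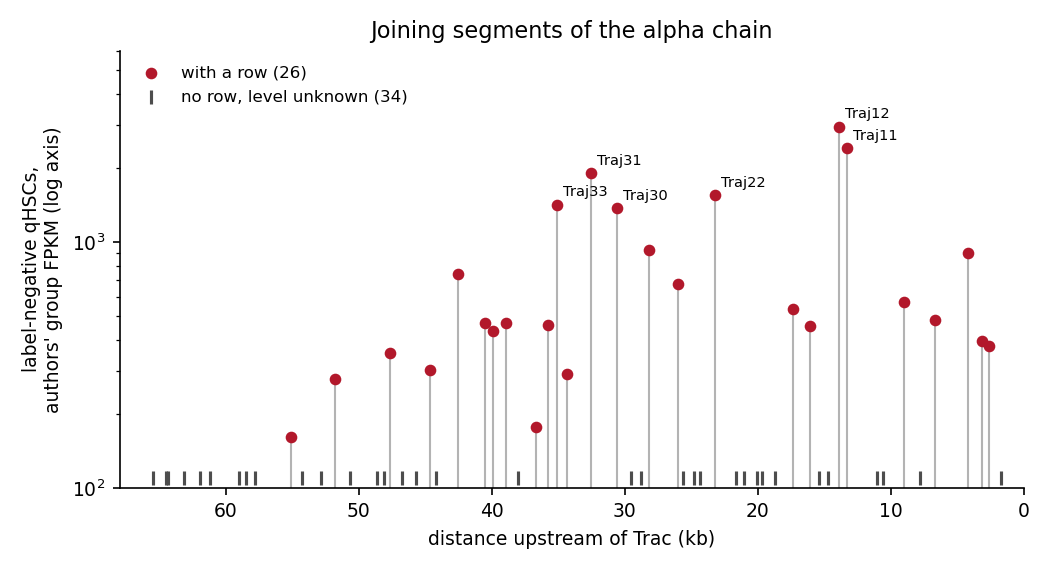
Authors' group FPKM (log axis) of the 26 alpha joining segments with a row in label-negative qHSCs, against the distance in kb from the end of each segment to the start of Trac. Ticks at the base mark the 34 annotated segments without a row, whose level is unknown; Traj12 (2947 FPKM) and Traj11 (2408 FPKM) stand highest, 13.9 and 13.3 kb from Trac.

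The other T cell receptor segments were few. Trbj1-3 and Trbj1-4 were at 9235 and 5805 FPKM in label-negative qHSCs and listed at 0 in label-positive cells, and the other 12 of 14 annotated beta joining segments had no row. For the gamma chain, Trgj1 was at 2598 FPKM and 0, and Trgv2 at 15.6 and 1.23. No annotated gene carried a gamma constant region symbol of the form searched, so the level of that region is not known here. For the delta chain, Trdv4 was at 7.94 and 0.458 FPKM, a fold of 17.3 beside 16.7 for Trdc.

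Segments used by innate-like lymphocytes, which are common in mouse liver, were looked up from a list. Invariant NKT cells pair an alpha chain of Trav11 and Traj18 with beta chains of Trbv13-2, Trbv13-1, Trbv13-3, Trbv29 or Trbv1. All 5 beta segments had rows and 3 of them were the highest of all Trbv rows; Trbv1 was at 25.7 FPKM in the label-negative fraction and 1.45 in the label-positive fraction, and Trbv13-3 at 22.4 and 1.08. Their folds of 14.8 to 20.8 were the 5 lowest among the 12. Trav11, Trav11d and Traj18 had no row in qHSCs, and which T cells gave the beta values was not tested. Trav11n, annotated as a pseudogene and 97.7% identical to Trav11, was at 0.453 FPKM in the label-negative fraction and listed at 0 in the label-positive fraction; it was outside the list and is named after its value was seen. Of the segments of MAIT cells, Traj33 was at 1419 FPKM in label-negative qHSCs and 0 in label-positive cells, and Trav1 and Trbv19 had no row. Among regulators of innate-like T cells, Zbtb16, the invariant NKT cell regulator, was at 3.61 FPKM and 0.621 and Tbx21 at 15.9 and 0.886, whereas Sox13, at 5.07 and 13.5, was higher in label-positive cells.

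Segments favoured by B-1 cells, the innate-like B cells of the body cavities, were looked up too, and each had a row. Rows were listed for 89 of 183 annotated heavy and 89 of 160 annotated kappa V segments. Of those annotated, 115 heavy and 100 kappa segments are not pseudogenes. Ighv12-3 was at 9.24 FPKM in the label-negative fraction and 1.31 in the label-positive fraction. Ighv11-2 was at 6.17 and 0.390, and Ighv11-1, 98.9% identical to it, at 1.40 and 0. The light chain segments Igkv14-126 and Igkv4-91 were at 50.1 and 3.15 FPKM and at 27.9 and 4.13.

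Markers of other cell types also separated the 2 fractions, and their part in the receptor values was not tested. All 6 NK cell genes were higher in label-negative cells (folds 17.3 to 42.2). All 10 sinusoidal endothelial genes and all 10 hepatocyte genes were higher in label-positive cells; Clec4g was at 1023 FPKM in the label-negative fraction and 2787 in the label-positive fraction, and Alb at 107 and 302. Of 12 macrophage genes 9 had rows, 8 of them higher in label-positive cells. Of 12 stellate cell genes 6 had rows; Pdgfrb was at 0.905 and 0.370 FPKM, Rgs5 at 0.750 and 3.29 and Hgf at 17.0 and 44.1, and Lrat, Des and Reln had no row, so their level in the fractions labelled as stellate cells is not known from these values.

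The second question was which receptor segments had rows in the comparisons of WT1 deletion in aHSCs. Wt1 itself had no row in either table, so the deletion was not checked here. In the GFP-high fraction 7 of the 123 named rows were members, of which 5 were higher in WT1-deleted than in control cells, beside 77.2% of all named rows, and 2 were lower, beside 22.8%. The members' median difference, WT1-deleted minus control, was 2.19 on the log2(FPKM + 1) scale, beside 1.17 over all named rows. Here 2 of the rows joined several genes into 1 locus, which the quiescent table never did.

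The largest differences were those of the 2 joined rows. A row of 20 alpha chain genes, Trac and 19 joining segments (Traj18 and Traj33 among them), was at 10.9 FPKM in GFP-high controls and 213 after deletion, a fold of 19.6. A row of 16 beta chain genes, both constant regions, 1 D and 13 joining segments, was at 12.1 and 436 FPKM, a fold of 35.9. Which of the genes within a row gave the reads cannot be told apart. No CD3 chain, coreceptor, B cell or NK cell gene of the lists had a row in this table, so the levels of the genes that act beside these receptors are not known here. No T cell receptor V segment had a row either.

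The single segments of the GFP-high table were heavy and kappa V segments at low levels. Ighv1-26 was at 4.36 FPKM in controls and 30.7 after deletion, a fold of 7.04. Ighv13-2 and Ighv7-1 were listed at 0 in control cells and at 3.57 and 3.17 FPKM in WT1-deleted cells. Ighv2-3 and Igkv4-74 were listed at 0 in WT1-deleted cells and at 1.91 and 1.81 FPKM in control cells.

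In the GFP-intermediate fraction 12 of the 419 named rows were members, each of them a single gene. Of these, 5 were higher in WT1-deleted cells, beside 37.2% of all named rows, and 7 were lower, beside 62.8%. The members' median difference was -1.86 on the log2(FPKM + 1) scale, beside -1.18 over all named rows. The groups here had 2 samples each, and neither an antigen receptor constant region nor a joining segment had a row.

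Ighv1-26 was the only member of this table above 0 in both groups, at 5.60 FPKM in controls and 30.9 after deletion, a fold of 5.51. The 4 other higher rows were listed at 0 in control cells, with Ighv13-2 at 6.38, Igkv4-69 at 4.36, Ighv5-9 at 3.31 and Trbv3 at 1.38 FPKM in WT1-deleted cells. All 7 lower rows were listed at 0 in WT1-deleted cells. In control cells Igkv1-88 was at 13.2 FPKM, Ighv3-8 at 10.3, Ighv6-6 at 6.48, Ighv1-66 at 3.85, Igkv2-112 at 3.83, Igkv8-16 at 2.82 and Igkv6-13 at 2.43. Apart from Ighv1-26, each of these segments was thus above 0 in a single group.

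**Figure D5:**
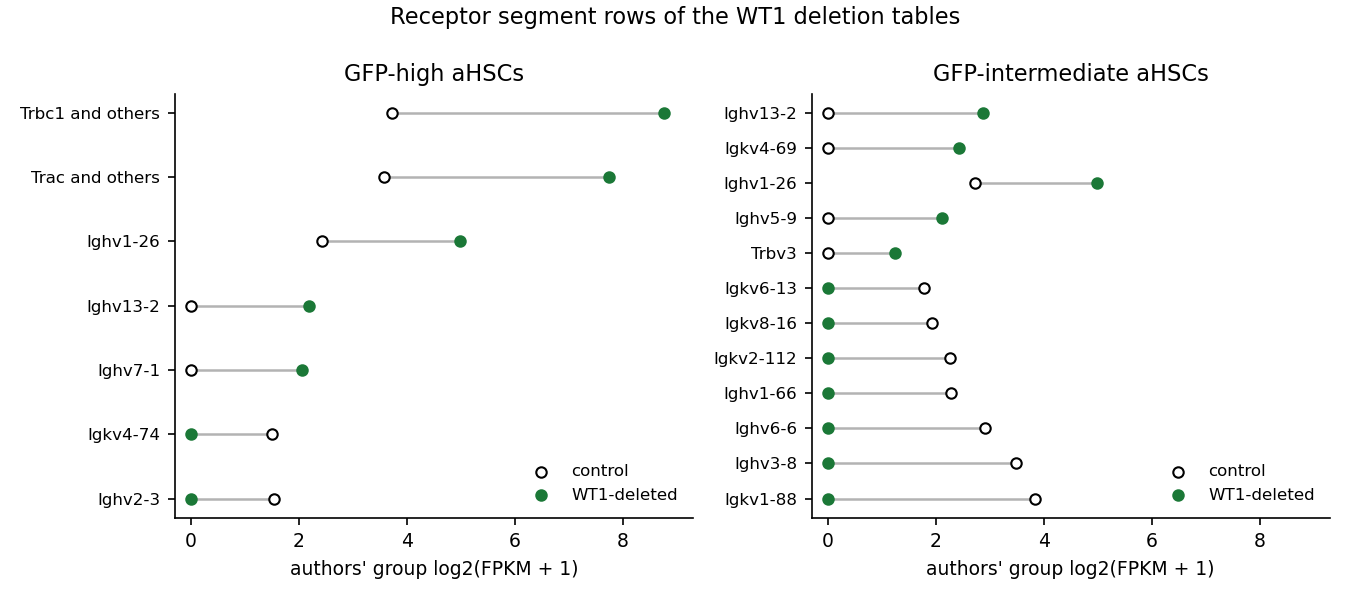
Authors' group values as log2(FPKM + 1) for the 7 member rows of GFP-high aHSCs (left) and the 12 of GFP-intermediate aHSCs (right), with control cells as open and WT1-deleted cells as filled circles. The joined rows of Trac (10.9 and 213 FPKM) and Trbc1 (12.1 and 436 FPKM) stand farthest to the right, and most single V segments lie at 0 in one group.

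Both deletion tables held Ighv1-26 and Ighv13-2, and both of these also had rows in qHSCs. All animals of the GFP-intermediate samples also gave GFP-high samples (1 WT1-deleted animal gave a GFP-high sample alone), so the 2 tables are not independent. Ighv1-26 was at 27.5 FPKM in the label-negative fraction and 1.43 in the label-positive fraction, and Ighv13-2 at 16.7 and 1.69. The last 90 bases of both V exons are shown because these segments recurred; capitals mark the codons of the conserved tyrosine, tyrosine or phenylalanine, cysteine run that precedes the joining site, found in the last 90 bases of 79.8% of the 183 annotated heavy V segments.
Ighv1-26 (chr12:114788372-114788461, minus strand): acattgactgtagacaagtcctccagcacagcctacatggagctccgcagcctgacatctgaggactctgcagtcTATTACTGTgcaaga
Ighv13-2 (chr12:114357759-114357848, minus strand): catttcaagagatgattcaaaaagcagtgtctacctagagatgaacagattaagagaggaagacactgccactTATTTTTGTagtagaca
The closest other annotated segment to Ighv1-26 was Ighv1-18, at 96.9% identity, and the closest to Ighv13-2 was Ighv6-3, at 81.3%.

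Of the 15 single segments in the deletion tables, 12 also had a row in qHSCs. The share of all named deletion rows that also had a qHSC row was not counted. All 285 member rows in qHSCs were higher in label-negative cells, and so were these 12. Among them Igkv6-13, at 131 and 8.11 FPKM in label-negative and label-positive qHSCs, was the highest, and Igkv1-88 was at 26.0 and 2.34, Ighv6-6 at 25.3 and 3.14 and Ighv2-3 at 20.03 and 2.23. Ighv7-1 was at 16.3 and 5.63 FPKM, Ighv5-9 at 14.3 and 0.831, Ighv3-8 at 12.9 and 0.714, Ighv1-66 at 12.9 and 0.404, and Igkv4-74 at 11.2 and 0.697. Igkv4-69, Igkv2-112 and Igkv8-16 had no row in qHSCs.

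Few genes of the lymphocyte lists accompanied the segments in GFP-intermediate cells. Cd22, a B cell coreceptor, was at 7.21 FPKM in controls and 1.33 after deletion, and Cd37 at 99.8 and 34.2. Sdc1, a plasma cell surface marker that other cells also make, was at 101 and 44.6 FPKM. Of the 12 macrophage genes 9 had rows, C1qb and C1qc a shared one, and all 9 were lower in WT1-deleted cells, with folds of 2.68 to 5.15, and no CD3 chain had a row. Of the 12 stellate cell genes 3 had rows, 2 higher and 1 lower after deletion; Rgs5 was at 1.41 FPKM in controls and 8.20 after deletion, Colec11 at 2.92 and 10.7, and Hgf at 9.45 and 3.35. The part of these shifts in the receptor values was not tested.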

How the data were processed

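Sorted qHSCs and aHSCs of 16 samples were sequenced on an Illumina HiSeq. Per the labels the authors used TopHat2 2.0.3 and Cufflinks 2.0.1, with mm9 and mm10 both named and the role of each not given in the sources used here. Cuffdiff2 made the comparisons, and the study's adjusted p-value limit was 0.05. The 5716 quiescent rows match the number of genes that the paper reports as differentially expressed. The WT1 deletion rows with a gene name outnumber the genes that the paper reports as changed, and the limit behind them was not checked. The authors deposited FPKM values, 1 per group and row, with replicates combined. Depth per sample is unknown, so no interval could be given. Columns with the authors' fold changes and p-values were not used, and 0 columns of values per sample were left unused. Tests planned for values per sample were not run. Differences were computed on log2(FPKM + 1).

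The members and gene lists were chosen with earlier results of these data known. Genes named are all constant regions, the 3 highest V, D and J segments of each locus, all members of the deletion tables or of several tables, segments of innate-like receptors, and up to 4 examples of each list; exceptions are stated, and some genes of the lists are not reported here. Rows were matched by symbol to GENCODE vM21 (GRCm38), whose annotation may differ from the authors', and V transcripts were compared with blastn 2.17.0 (at least 97% identity over 90% of the length). Matching and counting were checked on simulated data. Python 3.11.15, pandas 2.3.3, numpy 2.4.6 and matplotlib 3.10.9 were used. Alternatives were an FPKM of at least 1, rows naming 1 gene, gene names counted once, a difference of at least 1, no D or J segments, rows above 0 in both groups, and a pseudocount of 0.1.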

Additional observations from a re-analysis of the deposited data

How the results depend on the processing

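No paired analysis was possible because the deposited tables hold 1 value per group, not per animal; for the same reason leaving out single replicates, the fit with animal as a block and every test were not run. Of 35 alternative values, 28 stayed within 1.5-fold of the reported value or count. Some of these could not move, so the 28 do not measure how stable the results are. In qHSCs and GFP-intermediate cells no member row joined several genes, and no member row of the deletion comparisons held only D or J segments. In qHSCs the count of rows higher in label-negative cells, 285, ranged from 195 (above 0 in both fractions) to 285. Its median difference of -2.59 became -3.28 with a pseudocount of 0.1, since rows listed at 0 then weigh more. In GFP-high cells the 5 higher rows became 3 among rows naming 1 gene, 3 among rows above 0 in both groups and 39 when each gene name was counted, because 2 rows join 36 genes; the 2 lower rows became 0 above 0 in both groups. In GFP-intermediate cells the 5 higher rows became 1 and the 7 lower rows 0 in rows above 0 in both groups. The deletion counts therefore rest mostly on segments listed at 0 in 1 group, and unknown depth limits what a listed 0 means.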
